A study of Homo sapiens with 32 samples.

Results

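Cells that express a phosphomimetic form of the translation initiation factor eIF3d were compared with cells that express the wild-type form, at the level of RNA and under endoplasmic reticulum (ER) stress. HEK293T, an established human embryonic kidney line, carried eIF3d with both S528D and S529D (DD) or wild-type eIF3d (WT), and cells received 600 nM thapsigargin (Tg) for 16 h. The comparison sets the 2 DD Tg libraries against the 2 WT Tg libraries of polyadenylated RNA. The 2 DD DMSO and 2 WT DMSO libraries, from cells given the vehicle, show the same genotypes without Tg. The labels do not state how the eIF3d alleles were introduced, whether each genotype was 1 clone, or whether libraries of 1 group came from separate cultures, so p-values measure the spread between these libraries, which may be technical. Genes were kept where the mean over the 8 RNA libraries was at least 1 RPKM (reads scaled to transcript length and library depth, the unit of the deposited table), which left 9637 of 58721. At that limit ELOVL7, with a mean of 1.0002 RPKM, was the last gene kept, and ENSG00000248161, with 0.9998 RPKM, was the first left out.

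eIF3 is the large multi-subunit factor that brings the small ribosomal subunit to an mRNA, and eIF3d is the subunit that can itself bind the 5′ cap of selected mRNAs. Casein kinase 2 phosphorylates eIF3d near its C-terminus, and aspartates at those serines mimic the phosphorylated form, which binds caps poorly. Thapsigargin blocks the calcium pump of the ER, so that proteins misfold there. The unfolded protein response then acts through PERK, IRE1 and ATF6, and the integrated stress response acts through phosphorylated eIF2α and the transcription factors ATF4 and CHOP. The series asks how eIF3d bears on the integrated stress response when stress persists, and the RNA comparison asks which transcripts differ between the genotypes at that stage.

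The libraries held 10163214 and 6590445 reads in DD Tg and 8179644 and 7804214 reads in WT Tg, in the order replicate 1, replicate 2 used throughout. Mitochondrial ribosomal RNA took 32.1% and 57.3% of reads in DD Tg, against 49.8% and 29.9% in WT Tg. The second DD Tg library stood apart from the other 7, with a score of 75.5 on the second principal component (22.3% of the variance), where the others lay between -25.7 and -0.14. The first component (55.6%) separated the replicate 1 libraries, at -50.0 to -29.8, from the other replicate 2 libraries, at 52.7 to 59.4. Of 10 markers of the HEK293 line, some differed between the same sets, in either direction. NEFM, a neurofilament gene that this line is known to express, had 31.9 to 62.2 RPKM in the replicate 1 libraries of the 4 groups and 0.0693 to 1.23 RPKM in the replicate 2 libraries, and DCX had 7.98 to 16.3 RPKM and 0.0 RPKM in those sets. The keratin gene KRT18 was higher in replicate 2 than in replicate 1 in WT Tg, DD DMSO and WT DMSO but not in DD Tg, where it had 17.2 and 6.84 RPKM, against 15.7 and 36.1 RPKM in WT Tg. The summed level of the 10 was 140 and 43.2 RPKM in DD Tg and 159 and 65.6 RPKM in WT Tg. The summed level of 8 fibroblast markers was 27.2 to 40.2 RPKM in replicate 1 libraries and 0.0904 to 0.687 RPKM in replicate 2 libraries, with COL1A2 at 0.0 in all 4 replicate 2 libraries. Over all genes, 18 had at least 5 RPKM in every replicate 1 library and at most 0.5 RPKM in every replicate 2 library, and 0 had the opposite pattern. Of 10 markers of mature kidney tubule and podocyte, 0 reached a mean of 1 RPKM, as was the case for 8 endothelial and 8 blood markers. The part that these differences between libraries play in the results was not tested, so each result is given within replicate 1 and within replicate 2.

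No gene was called different between DD Tg and WT Tg. By limma on log2(RPKM + 1), 0 of 9637 genes (0.0%) had a Benjamini-Hochberg adjusted p under 0.05. The lowest adjusted p was 1, and 82 genes had an unadjusted p under 0.05. Those 82 are fewer than the share of 0.05 expected if no gene differed. The fit has no block, so differences between replicate numbers count in its spread. The 0 calls therefore do not show that the genotypes are alike. On reads recovered from the RPKM values, limma with voom gave 0 calls and 59 unadjusted ones. The DMSO libraries gave 0 calls between DD and WT as well (0.0%, 68 unadjusted), and so did the test of whether the genotype difference changed with Tg (0.0%, 21 unadjusted). In bulk RNA, fewer cells of a kind and less RNA per cell cannot be told apart. All values below are descriptions of these 4 libraries, and no single difference between the genotypes passed a test.

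The 2 replicate numbers gave opposing pictures of the genotype difference for most genes. The log2 difference, DD Tg minus WT Tg, had the same sign in both for 3000 genes (31.1%), and the 2 differences had a Pearson r of -0.389 across the 9637 genes, which are not independent of each other and share the 4 libraries. In DMSO the same correlation was 0.099. The spread of differences was 0.600 (SD) in replicate 1 and 1.13 in replicate 2, and the interquartile range ran between -0.23 and 0.57 in replicate 1 and between -0.97 and 0.68 in replicate 2. A gene is called apart here where both DD Tg values lie on the same side of both WT Tg values. By that rule 987 genes (10.2%) were higher in DD Tg and 584 (6.06%) were lower. That excess of higher genes depended on the scaling, since median-ratio scaling gave 857 higher and 856 lower, and totals without mitochondrial genes gave 954 and 890. Higher genes were 62.8% of those apart with the deposited scaling, 50.0% with median-ratio scaling and 51.7% without mitochondrial genes. The last scaling also moved the median of all genes to -0.15 in replicate 1 and 0.43 in replicate 2, against 0.17 and -0.06 as deposited, so list medians are given relative to all genes. In DMSO 1065 genes (11.1%) were higher in DD and 453 (4.7%) were lower. Genes at least 2-fold apart within both replicate numbers were few, with 45 (0.467%) higher and 21 (0.218%) lower in DD Tg.

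**Figure D1:**
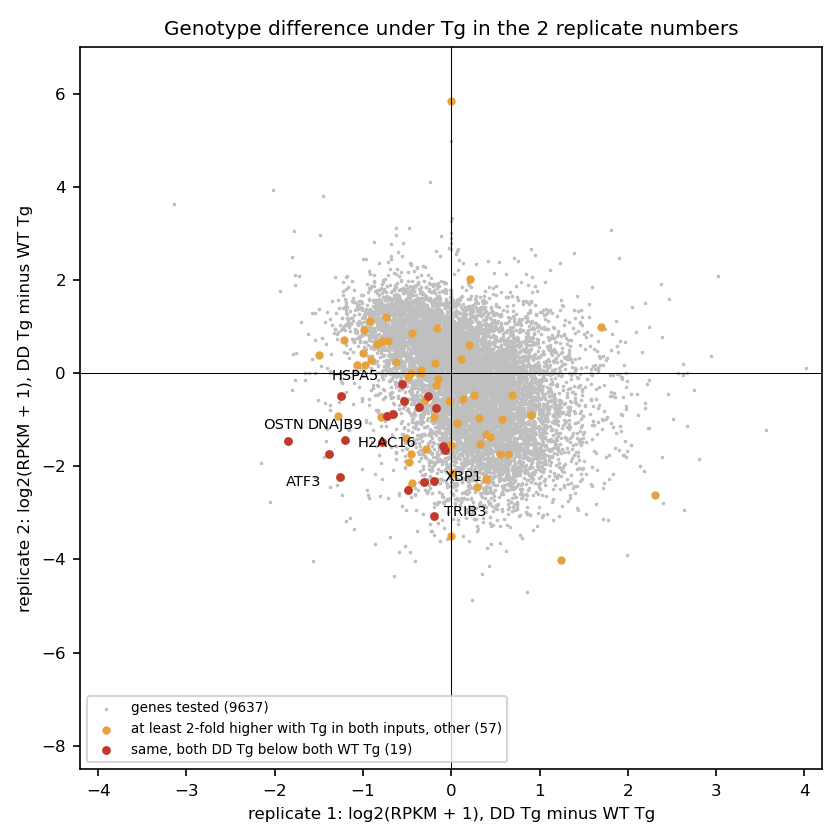
Each point is a gene, placed by its DD Tg minus WT Tg difference in log2(RPKM + 1) in replicate 1 (horizontal) and in replicate 2 (vertical). Grey points are all 9637 genes and lie mostly along a falling diagonal (r -0.389). The 19 red points are genes higher with Tg in both Subunit-Seq inputs, with both DD Tg values below both WT Tg values. They lie at the lower left, with differences of -1.85 to -0.07 in replicate 1 and -3.08 to -0.24 in replicate 2.

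EIF3D itself, on chromosome 22 at 36510855 to 36529166 (GRCh38.p14), had 64.3 and 29.2 RPKM in DD Tg and 44.3 and 91.2 RPKM in WT Tg. The DD value was the higher in replicate 1 and the lower in replicate 2, so the groups overlapped. The difference was -0.54 ± 0.81 (log2, SE), and the counts do not separate the S528D and S529D allele from the wild-type one.

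Of 5 transcripts of stress regulators and effectors, ATF4 and DDIT3 had opposite signs in the 2 replicates and XBP1, HSPA5 and JUN were lower in DD Tg in both. ATF4, the transcription factor whose translation rises when eIF2α is phosphorylated, had 359 and 151 RPKM in DD Tg and 224 and 314 RPKM in WT Tg. DDIT3, which encodes CHOP, had 21.4 and 14.3 RPKM in DD Tg and 20.4 and 31.2 RPKM in WT Tg. Both genes were higher in DD in replicate 1 and lower in replicate 2. XBP1, the transcript that IRE1 splices, had 96.9 and 22.9 RPKM in DD Tg and 111 and 118 RPKM in WT Tg. HSPA5, which encodes the ER chaperone BiP, had 65.9 and 58.7 RPKM in DD Tg, against 97.5 and 69.5 RPKM in WT Tg. XBP1 and HSPA5 were lower in both DD libraries than in either WT library, at -1.26 ± 0.89 and -0.40 ± 0.86 (log2, SE). JUN, a subunit of the AP-1 factor, had 12.3 and 25.2 RPKM in DD Tg and 20.1 and 40.1 RPKM in WT Tg. It was lower in DD within both numbers, by -0.66 and -0.65, although its groups overlapped.

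The genes of the m6A and eIF2 kinase machinery named with them had low levels. ALKBH5, an m6A demethylase, had 4.26 and 6.14 RPKM in DD Tg and 5.79 and 6.95 RPKM in WT Tg. EIF2AK4, which encodes the eIF2α kinase GCN2, had 1.66 and 2.30 RPKM in DD Tg and 1.74 and 0.589 RPKM in WT Tg. METTL3, the catalytic m6A methyltransferase subunit, had 3.22 and 2.73 RPKM in DD Tg, just above 2.37 and 2.54 RPKM in WT Tg. Its partner METTL14 had 1.13 and 2.34 RPKM in DD Tg and 1.75 and 0.616 RPKM in WT Tg. Of these 4, METTL3 was apart (0.20 ± 0.46, log2, SE), and ALKBH5 was lower in DD within both numbers but overlapped.

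Genes that were higher with Tg in other libraries of the series lay low in DD Tg. The Subunit-Seq experiment of the series has its own input RNA from HEK293T with and without Tg. Its 2 tables share no library with the RNA-Seq. The labels give the genotype of these cells as HA-eIF3d-TEV, which is neither the DD nor the WT label of the RNA-Seq. Of the genes tested, 76 were at least 2-fold higher with Tg than with DMSO in both tables. They include 5 replication-dependent histone genes and noncoding RNAs such as RN7SL2, RN7SL3, RN7SKP80, SNORA71A, SCARNA5 and RNA5-8SN2. In the RNA-Seq, 19 of these 76 (25%) were apart and lower in DD Tg, beside 6.06% of all genes, and 1 (1.32%), the disulfide isomerase PDIA3, was apart and higher, beside 10.2%. Their median difference was 0.51 below that of all genes on the log2 scale, 0.46 below within replicate 1 and 0.75 below within replicate 2, and 10 of the 76 lay above the all-gene median. In DMSO the same genes were 0.27 below all genes, but the 2 replicates disagreed. Their median DD DMSO minus WT DMSO difference was 0.19 in replicate 1 and -0.36 in replicate 2, against 0.03 and 0.23 for all genes. There 13 of the 76 were apart and lower in DD and 7 apart and higher, beside 4.7% and 11.1% of all genes. The 50 genes at least 2-fold lower with Tg in both inputs had 3 members apart and lower in DD Tg and 10 apart and higher. Leaving out the second DD Tg library, 29 of the 76 lay below both WT Tg libraries and 8 above, beside 1176 and 3281 of the 9637 genes.

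The 76 genes barely followed the Tg label in the RNA-Seq libraries themselves. Their median Tg minus DMSO difference was -0.34 in replicate 1 and -0.01 in replicate 2 in DD, and 0.13 and 0.12 in WT. All genes tested had medians of 0.12 and -0.08 in DD and 0.00 and 0.24 in WT. Higher with Tg at any size in both replicate numbers were 6 of the 76 in DD and 30 in WT, beside 1790 and 3676 of all 9637. At least 2-fold higher with Tg in both replicate numbers were 0 of the 76 in DD and 1 in WT. DDIT3, for example, had 21.4 and 14.3 RPKM in DD Tg against 33.5 and 41.8 RPKM in DD DMSO. In WT cells DDIT3 had 20.4 and 31.2 RPKM in WT Tg against 16.7 and 24.3 RPKM in WT DMSO. These values share the Tg libraries with the genotype comparison.

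Of the 19 genes, 12 belong to a list described below. ATF3, a transcription factor of the ATF4 branch on chromosome 1, had the lowest difference among them, with 16.2 and 9.05 RPKM in DD Tg against 40.1 and 46.4 RPKM in WT Tg (-1.75 ± 0.67, log2, SE). TRIB3, a pseudokinase induced by CHOP, had 41.6 and 8.04 RPKM in DD Tg, against 47.7 and 75.3 RPKM in WT Tg. The disulfide isomerase PDIA4 had 34.1 and 26.5 RPKM in DD Tg and 36.5 and 80.6 RPKM in WT Tg. DNAJB9, an ER co-chaperone of BiP, had 4.44 and 2.14 RPKM in DD Tg and 8.02 and 4.97 RPKM in WT Tg. SLC1A4, a neutral amino acid transporter, had 1.91 and 1.27 RPKM in DD Tg and 3.22 and 2.42 RPKM in WT Tg. WARS1, the tryptophanyl-tRNA synthetase, had 10.7 and 7.21 RPKM in DD Tg and 12.2 and 12.8 RPKM in WT Tg. The coat proteins COPG1 and SEC23B, which form COPI and COPII vesicles, had differences of -0.55 ± 0.56 and -0.38 ± 0.58 (log2, SE). For TRIB3 and PDIA4 most of the gap came from replicate 2 (-3.08 and -1.57, against -0.19 and -0.09 in replicate 1), whereas for DNAJB9 and SLC1A4 the 2 numbers were close (-0.73 and -0.93, and -0.54 and -0.59). The other members were HSPA5, XBP1, INHBE, GDAP1L1, PLPP5, OSTN, the histone genes H2AC8 and H2AC16, and the noncoding RN7SKP80, NHSL1-AS1 and ENSG00000271992. Members of the 19 that are in no list were named after their values were seen.

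**Figure D2:**
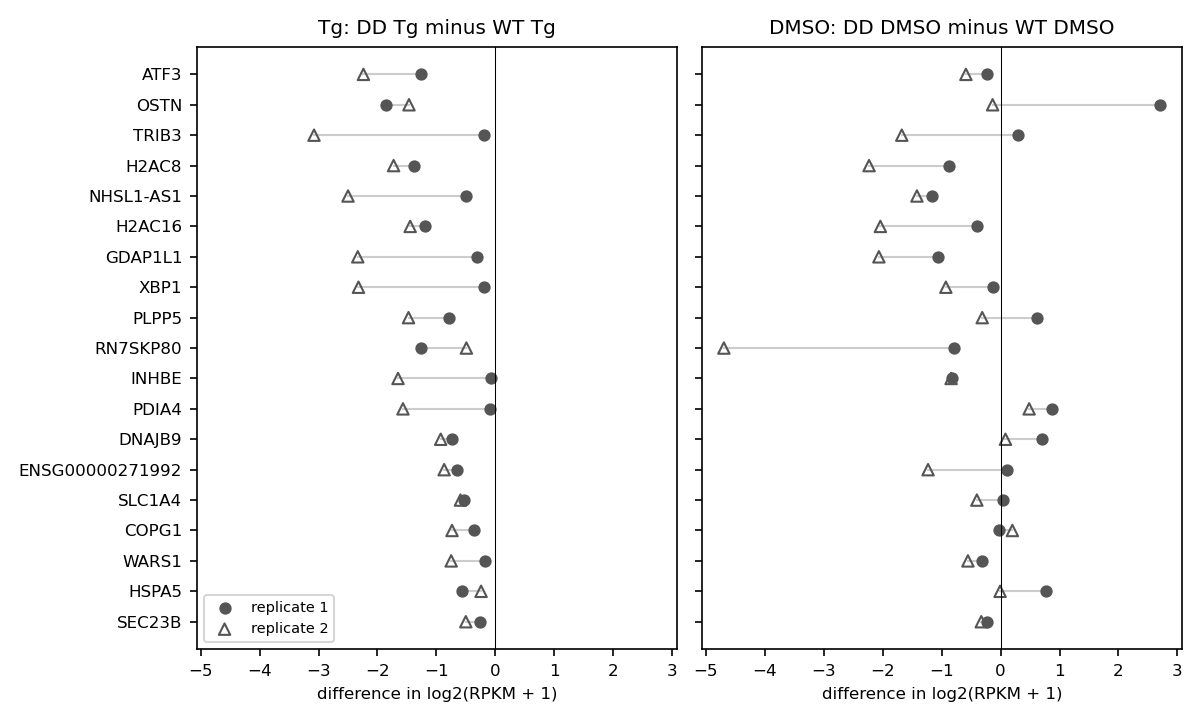
The 19 genes at least 2-fold higher with Tg in both Subunit-Seq inputs and with both DD Tg values below both WT Tg values, from the lowest mean difference at the top. Filled circles are replicate 1 and open triangles replicate 2; the left panel gives DD Tg minus WT Tg, all below 0 because of how the genes were chosen, and the right panel gives DD DMSO minus WT DMSO in log2(RPKM + 1), where PDIA4 and DNAJB9 lie above 0 in both replicates.

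Among the 19, 15 had a promoter window in the RefSeq table (GRCh38.p14, from upstream of a start to just after it), in 23 windows. The windows of HSPA5, XBP1 and ATF3 are shown because their letters hold the elements by which ER stress is known to act on transcription. The ER stress response element (CCAAT and, after a gap of 9 bases, CCACG) binds NF-Y with ATF6, and the core TGATGNAA is part of the element that ATF4 and CHOP bind. Capitals mark matches to these and to TGANTCA, on either strand. TGANTCA is the AP-1 element written loosely, with any middle base allowed, and the HSPA5 match reads TGAATCA. A match to it is therefore not called an AP-1 site here.
HSPA5, chr9:125241294-125241593, minus strand: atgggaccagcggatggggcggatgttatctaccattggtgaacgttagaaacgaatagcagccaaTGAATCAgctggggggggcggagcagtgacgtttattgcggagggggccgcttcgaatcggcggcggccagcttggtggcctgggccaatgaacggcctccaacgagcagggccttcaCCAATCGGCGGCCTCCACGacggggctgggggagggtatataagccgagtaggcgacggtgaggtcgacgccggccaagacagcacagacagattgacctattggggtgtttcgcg
XBP1, chr22:28800520-28800819, minus strand: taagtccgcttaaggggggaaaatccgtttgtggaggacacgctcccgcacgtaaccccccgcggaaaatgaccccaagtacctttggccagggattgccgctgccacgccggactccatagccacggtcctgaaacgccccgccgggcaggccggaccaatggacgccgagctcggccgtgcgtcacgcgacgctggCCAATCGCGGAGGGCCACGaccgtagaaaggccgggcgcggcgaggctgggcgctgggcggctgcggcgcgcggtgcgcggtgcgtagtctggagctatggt
ATF3, chr1:212565157-212565456, plus strand: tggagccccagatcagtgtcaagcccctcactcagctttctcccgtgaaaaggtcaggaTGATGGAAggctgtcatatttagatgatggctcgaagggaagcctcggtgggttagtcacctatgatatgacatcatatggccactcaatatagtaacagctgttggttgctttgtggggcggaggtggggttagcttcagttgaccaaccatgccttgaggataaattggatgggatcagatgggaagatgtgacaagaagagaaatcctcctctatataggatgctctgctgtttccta
The ER stress response element was found in 2 of the 23 windows (8.7%) and in 27 of all 35116 windows (0.0769%), and TGATGNAA was found in 4 of 23 (17.4%) and in 1270 of all (3.62%). Of the 63 windows of all 76 genes higher with Tg in the inputs, 5 (7.94%) and 9 (14.3%) held them. TGANTCA was in 1 of the 23 (4.35%) and 7.71% of all windows, TGACGTCA (cyclic AMP response element) in 1 (4.35%) and 1.85%, and TGACGTGG (the core of the XBP1-bound element) in 0 and 0.729%. The letters TGACGTCA hold no TGANTCA, and a match in these letters describes the window and not a bound site.

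The gene lists for stress pathways are described by their counts and medians beside all genes. Each median is given relative to the all-gene median of the same replicate number. Of all genes tested, 10.2% were apart and higher in DD Tg and 6.06% apart and lower. The 12 transcription factors of the integrated stress response, all tested, had a median 0.60 below all genes (-0.37 in replicate 1 and -1.0 in replicate 2), with 3 apart and lower in DD Tg (ATF3, ATF5 and XBP1) and 0 apart and higher. ATF5, itself translated under stress, had 1.23 and 0.514 RPKM in DD Tg and 2.15 and 3.69 RPKM in WT Tg. Of 46 tested targets of ATF4 and CHOP, 8 (17.4%) were apart and lower in DD Tg and 2 (4.35%) apart and higher. The list's median was -0.07 in replicate 1 and -0.87 in replicate 2. FGF21, a hormone gene of that list, had 1.35 and 0.115 RPKM in DD Tg and 2.79 and 11.8 RPKM in WT Tg. PPP1R15A, which encodes the phosphatase subunit GADD34 that reverses eIF2α phosphorylation, had 6.59 and 4.22 RPKM in DD Tg and 9.80 and 38.9 RPKM in WT Tg. In DMSO 8 of the 46 were apart and lower in DD, beside 4.7% of all genes. FGF21 was among them, with 1.98 and 2.34 RPKM in DD DMSO and 8.19 and 21.4 RPKM in WT DMSO.

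The 20 tested kinases, eIF2 and eIF2B subunits and regulators had a median of -0.15 in replicate 1 and 0.64 in replicate 2, with 3 apart and higher in DD Tg and 1, PPP1R15A, apart and lower. EIF2S2, the β subunit of eIF2, had 80.0 and 107 RPKM in DD Tg and 57.3 and 44.6 RPKM in WT Tg, and EIF2S3, the γ subunit, had 46.2 and 57.6 RPKM in DD Tg and 33.4 and 22.5 RPKM in WT Tg. EIF2A, a separate initiation factor, was the other one. For EIF2S2 and EIF2S3 both DD values lay above both WT values (0.86 ± 0.77 and 0.89 ± 0.70, log2, SE). In DMSO they were also apart and higher in DD, by 0.85 ± 0.77 and 1.07 ± 0.70, among 4 members that were, beside 11.1% of all genes. With median-ratio scaling 3 members of the list were apart in each direction under Tg.

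The 3 lists of ER protein handling lay below all genes in different replicates, the chaperones in replicate 2, the coat proteins in replicate 1 and the translocation list in both. Of 30 tested ER chaperones and folding enzymes, 5 (16.7%) were apart and lower in DD Tg (DNAJB9, SELENOM, P4HB, HSPA5 and PDIA4). The share of all genes was 6.06%. Apart and higher was 1, PDIA3 (3.33%, beside 10.2% of all genes). The list's medians were -0.05 in replicate 1 and -0.90 in replicate 2. In DMSO 6 of the 30 were apart and higher in DD and 1 lower, beside 11.1% and 4.7% of all genes. The list's median there lay 0.25 above all genes. P4HB, a protein disulfide isomerase, had 18.9 and 6.72 RPKM in DD Tg and 23.8 and 62.2 RPKM in WT Tg. SELENOM, an ER selenoprotein, had 20.2 and 3.19 RPKM in DD Tg and 28.4 and 59.3 RPKM in WT Tg. PDIA3 was the exception, with 33.7 and 32.5 RPKM in DD Tg and 31.1 and 26.2 RPKM in WT Tg. The 47 tested genes of ER translocation, glycosylation and ER-associated degradation had closer medians in the 2 replicates (-0.25 and -0.36). Of these 47, 7 (14.9%) were apart and lower in DD Tg and 2 (4.26%) apart and higher. SSR4, a translocon-associated subunit, had 90.6 and 24.5 RPKM in DD Tg and 121 and 416 RPKM in WT Tg, and SSR2 of the same complex had 19.5 and 6.09 RPKM in DD Tg and 26.2 and 41.7 RPKM in WT Tg. SRP14, of the signal recognition particle, was higher, with 106 and 97.4 RPKM in DD Tg and 94.9 and 80.1 RPKM in WT Tg. Of 30 tested COPII and COPI genes, 7 (23.3%) were apart and lower in DD Tg and 1 (3.33%) apart and higher. Their medians were -0.47 and 0.00. ARF1, the GTPase that recruits COPI, had 45.9 and 31.4 RPKM in DD Tg and 69.5 and 198 RPKM in WT Tg, and KDELR3, a retrieval receptor for ER proteins, had 5.97 and 2.36 RPKM in DD Tg and 8.18 and 5.98 RPKM in WT Tg.

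Among lists of amino acid metabolism, transporters and synthetases had genes apart in both directions with the deposited scaling. The synthesis list had 1 gene apart, a share below that of all genes. Of all genes 10.2% were apart and higher and 6.06% lower. Among 21 tested genes of serine, glycine, asparagine and one-carbon synthesis, 1 (4.76%), MTHFD1L, was apart and lower in DD Tg and 0 were higher. The list's medians were -0.02 and -0.85. MTHFD1L had 9.86 and 9.64 RPKM in DD Tg and 10.06 and 12.4 RPKM in WT Tg, so its replicate 1 values were close. Of 14 tested amino acid transporters, SLC7A3 and SLC1A4 were apart and lower and SLC6A15 higher. The 20 cytosolic aminoacyl-tRNA synthetases depended on the scaling, with 3 apart and lower in DD Tg (VARS1, WARS1 and MARS1) and 3 apart and higher, RARS1 and CARS1 among them, but 4 lower and 0 higher with median-ratio scaling. RARS1, the arginyl-tRNA synthetase, had 24.2 and 22.9 RPKM in DD Tg and 22.1 and 11.4 RPKM in WT Tg.

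The medians of the apoptosis and immediate early lists lay below all genes in both replicates, while a minority of their members, 5 of 15 and 5 of 12, were lower in DD Tg within both. Of 15 tested BCL2 family and p53 genes, 5 were apart and lower in DD Tg (33.3%, beside 6.06% of all genes) and 0 higher, with medians of -0.44 and -0.37. PMAIP1, the BH3-only gene NOXA on chromosome 18, had 47.4 and 18.8 RPKM in DD Tg and 128 and 53.4 RPKM in WT Tg, with differences of -1.42 and -1.46 in the 2 numbers. By limma its difference was -1.44 ± 0.95 (log2, SE) with an adjusted p of 1. The groups did not overlap, and their nearest values were 47.4 RPKM in DD Tg and 53.4 RPKM in WT Tg. PMAIP1 had 38.6 and 12.6 RPKM in DD DMSO and 89.3 and 26.4 RPKM in WT DMSO. CDKN1A, the p21 cell cycle inhibitor, had 8.07 and 2.54 RPKM in DD Tg and 12.3 and 10.0 RPKM in WT Tg. BAD and BID, both pro-apoptotic, had 3.17 and 3.11 RPKM and 6.66 and 2.66 RPKM in DD Tg, against 4.01 and 18.8 RPKM and 7.15 and 12.5 RPKM in WT Tg. The 12 tested AP-1 and immediate early genes had medians of -0.29 and -0.45, with 2 apart and lower in DD Tg (ATF3 and DUSP1) and 1 higher (IER2). DUSP1, a phosphatase of MAP kinases, had 3.70 and 1.73 RPKM in DD Tg and 5.03 and 10.8 RPKM in WT Tg.

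**Figure D3:**
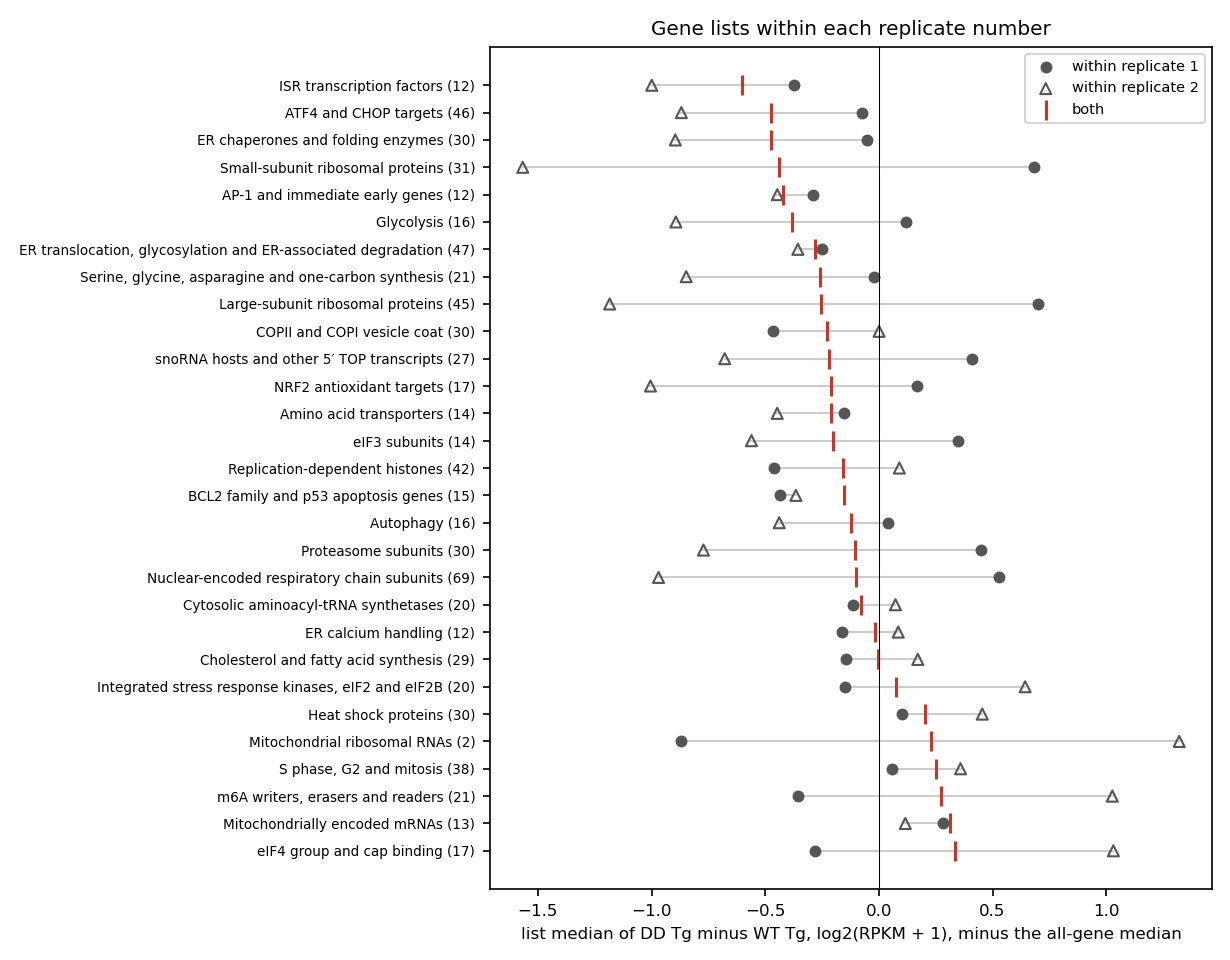
Median DD Tg minus WT Tg difference in log2(RPKM + 1) of 29 gene lists minus the median of all genes, within replicate 1 (filled circles), within replicate 2 (open triangles) and over both (red bars), with the number of tested members in brackets. Apoptosis, AP-1 and ER translocation lists have both replicates on the left of 0, heat shock and mitosis lists have both on the right, and ribosomal protein lists have replicate 1 near 0.7 and replicate 2 below -1.1.

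Heat shock genes, cytosolic and mitochondrial, had a larger share of members apart and higher in DD Tg than all genes. Of 30 tested heat shock genes, 9 were apart and higher in DD Tg (beside 10.2% of all genes) and 1, BAG3, lower, with medians of 0.10 and 0.45. HSP90AB1, the constitutive cytosolic HSP90, had 125 and 139 RPKM in DD Tg and 85.5 and 74.0 RPKM in WT Tg. CCT8, a subunit of the chaperonin that folds actin and tubulin, had 81.6 and 53.2 RPKM in DD Tg and 48.2 and 34.9 RPKM in WT Tg. HSPA14, a ribosome-associated HSP70, had 14 and 11.6 RPKM in DD Tg and 8.23 and 5.33 RPKM in WT Tg, and HSPE1, the mitochondrial co-chaperonin, had 11 and 9.36 RPKM in DD Tg and 7.67 and 5.64 RPKM in WT Tg. In DMSO 2 of the 30 were apart and higher in DD, beside 11.1% of all genes. The 38 tested genes of S phase, G2 and mitosis had medians of 0.06 and 0.36, with 4 apart and higher (10.5%, close to the 10.2% of all genes) and 1 lower. KIF20A, a mitotic kinesin, had 4.25 and 4.41 RPKM in DD Tg and 2.35 and 1.49 RPKM in WT Tg, and MCM3, of the replicative helicase, had 31.3 and 33.7 RPKM in DD Tg and 23.7 and 20.2 RPKM in WT Tg. CDC6, a replication licensing factor, was the lower one, with 6.73 and 6.14 RPKM in DD Tg and 8.56 and 8.09 RPKM in WT Tg.

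Of the 13 mitochondrially encoded mRNAs, 5 (38.5%) were apart and higher in DD Tg, beside 10.2% of all genes, and 0 were lower. Their medians were 0.28 and 0.12, and 9 were apart and higher in DD DMSO, beside 11.1% of all genes. MT-ND2, a complex I subunit, had 657 and 711 RPKM in DD Tg and 483 and 509 RPKM in WT Tg. Replication-dependent histone genes, whose mRNAs lack a poly(A) tail, had 7 of 42 tested members (16.7%) apart and lower in DD Tg. Of all genes 6.06% were lower, and 0 of the 42 were higher. The histone medians were -0.46 and 0.09, and 7 were apart and lower in DMSO, beside 4.7% of all genes. H2AC8, an H2A gene, had 0.580 and 0.596 RPKM in DD Tg and 3.12 and 4.28 RPKM in WT Tg. H4C5 and H4C14, both H4 genes, had 44.1 and 53.3 RPKM and 80.8 and 59.2 RPKM in DD Tg, against 75.4 and 68.5 RPKM and 96.5 and 149 RPKM in WT Tg. These genes are near-identical copies, so how reads were divided among them is uncertain.

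Translation and m6A lists mostly divided between the replicate numbers. Of the 31 tested small-subunit ribosomal protein genes, 31 were higher in DD Tg in replicate 1 and 3 in replicate 2, and of the 45 large-subunit genes 45 and 10 were. Their medians were 0.68 and -1.57, and 0.70 and -1.18. RPS24 and RPS25 were the small-subunit genes apart and higher, with 387 and 343 RPKM and 983 and 674 RPKM in DD Tg, against 198 and 163 RPKM and 312 and 485 RPKM in WT Tg. Of the 69 nuclear-encoded respiratory chain genes, 67 were higher in DD Tg in replicate 1 and 13 in replicate 2. Proteasome subunits (30 tested, medians of 0.45 and -0.77) followed the same pattern, with 3 (10.0%) apart and higher, beside 10.2% of all genes. So did snoRNA hosts and other 5′ TOP transcripts (27 tested, 0.41 and -0.68), with 5 (18.5%) higher and 1 (3.7%) lower. The eIF3 subunits (14 tested, 0.35 and -0.56) also did, with 1 (7.14%) higher. Of all genes 6.06% were apart and lower. PSMC1, a proteasome ATPase, had 4.30 and 8.23 RPKM in DD Tg and 1.31 and 2.97 RPKM in WT Tg. NPM1, a nucleolar chaperone among the TOP transcripts, had 520 and 398 RPKM in DD Tg and 257 and 222 RPKM in WT Tg. EIF3J, a loosely bound eIF3 subunit, had 15.1 and 18.1 RPKM in DD Tg and 13.8 and 10.3 RPKM in WT Tg.

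The opposite pattern, low in replicate 1 and high in replicate 2, was found for the 17 tested genes of the eIF4 group and cap binding (medians of -0.28 and 1.03, 3 apart and higher) and for the 21 tested m6A writers, erasers and readers (-0.36 and 1.03, 4 apart and higher and 0 lower). HNRNPA2B1, a nuclear m6A reader, had 29.8 and 47.7 RPKM in DD Tg and 15.3 and 21.4 RPKM in WT Tg, and RBMX had 34.9 and 38.4 RPKM in DD Tg and 29.4 and 19.2 RPKM in WT Tg. NCBP2, the nuclear cap-binding subunit, had 4.98 and 5.13 RPKM in DD Tg and 3.56 and 2.43 RPKM in WT Tg. Cholesterol and fatty acid synthesis (29 tested) had 3 (10.3%) higher and 1 (3.45%) lower, so its higher share was near that of all genes. ER calcium handling (12 tested) had 2 (16.7%) higher and 1 (8.33%) lower, but 0 higher with median-ratio scaling. Glycolysis (16 tested) had 0 higher and 1 (6.25%) lower, and autophagy (16 tested) had 1 (6.25%) higher and 2 (12.5%) lower. NRF2 targets (17 tested), with 0 apart in either direction, completed the lists. SQLE, the squalene epoxidase, had 13.2 and 11.8 RPKM in DD Tg and 7.95 and 2.86 RPKM in WT Tg. ORAI1, the channel for store-operated calcium entry, had 6.05 and 2.68 RPKM in DD Tg and 7.40 and 18.6 RPKM in WT Tg.

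Among genes with a mean of at least 5 RPKM, the 12 lowest in DD Tg by the smaller of their 2 replicate differences included stress, membrane and metabolic genes. TNFRSF12A, the receptor of the cytokine TWEAK, had 5.59 and 2.96 RPKM in DD Tg and 18.5 and 63.3 RPKM in WT Tg (-2.79 ± 0.89, log2, SE). SLC7A3, a transporter of cationic amino acids, had 2.35 and 0.268 RPKM in DD Tg and 6.21 and 11.8 RPKM in WT Tg (-2.22 ± 0.61). RHOB, a stress-inducible small GTPase, had 11.8 and 6.78 RPKM in DD Tg and 23.4 and 48.9 RPKM in WT Tg. IDH2, the mitochondrial isocitrate dehydrogenase, had 14.6 and 8.09 RPKM in DD Tg and 26.2 and 55.8 RPKM in WT Tg. VARS1, the valyl-tRNA synthetase, had 4.21 and 4.19 RPKM in DD Tg and 8.04 and 18.9 RPKM in WT Tg. H2AC16 had 15.3 and 11.6 RPKM in DD Tg and 36.4 and 33.3 RPKM in WT Tg. The vault RNA gene VTRNA1-3 had the lowest value by this ranking. Its levels were 2.21 and 0.0 RPKM in DD Tg and 12.4 and 5.76 RPKM in WT Tg. It is 89 bases long, so these values rest on few reads, and a mean of 5 RPKM does not remove such genes. UNC5B-AS1, KRTCAP2P1, GAPDHP40, ATF3 and PMAIP1 made up the 12; the first is antisense to UNC5B and the next 2 are pseudogenes, so reads of their partners may be counted with them.

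The 12 highest in DD Tg held a pair of nucleosome-binding proteins. HMGN5, on chromosome X, had 12.1 and 24.7 RPKM in DD Tg and 2.73 and 2.07 RPKM in WT Tg (2.44 ± 0.65, log2, SE), and HMGN3, on chromosome 6, had 98.4 and 56.3 RPKM in DD Tg and 35.0 and 21.5 RPKM in WT Tg (1.41 ± 0.76). HOXA5, a homeobox transcription factor, had 14.8 and 16.2 RPKM in DD Tg and 5.59 and 5.33 RPKM in WT Tg. XPA, which recognises damage in nucleotide excision repair, had 21.7 and 23.8 RPKM in DD Tg and 8.60 and 7.34 RPKM in WT Tg. CCDC34 had 9.17 and 12.6 RPKM in DD Tg and 2.78 and 3.30 RPKM in WT Tg, CFDP1 had 10.6 and 18.2 RPKM in DD Tg and 2.91 and 7.38 RPKM in WT Tg, and SMIM10 had 10.5 and 8.0 RPKM in DD Tg and 3.82 and 2.25 RPKM in WT Tg. The pseudogenes RPL39P40 and PTMAP9 and the IDs ENSG00000253945, ENSG00000277998 and ENSG00000272006 were the rest. RPL39P40, ENSG00000253945 and ENSG00000272006 are 146, 93 and 112 bases long, so their WT Tg values rest on few reads.

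**Figure D4:**
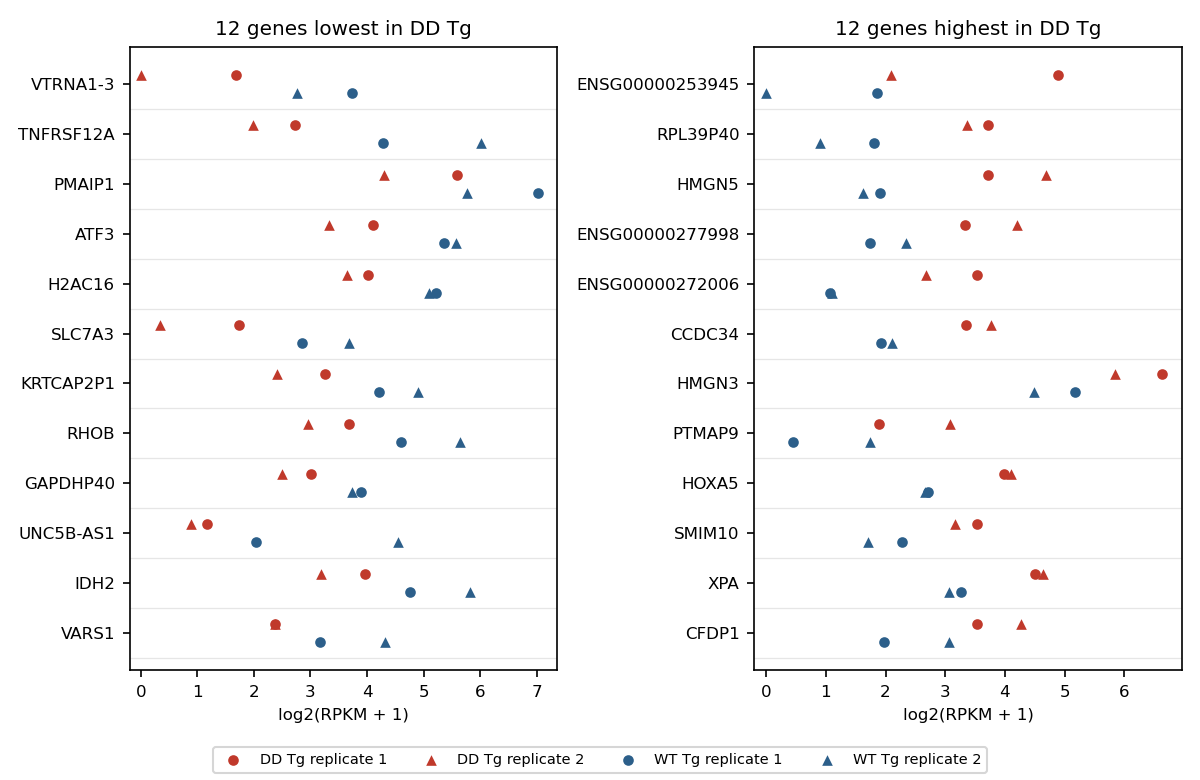
Level in log2(RPKM + 1) of the 12 genes lowest (left panel) and the 12 genes highest (right panel) in DD Tg, in each of the 4 Tg libraries. DD Tg is red and WT Tg blue, circles are replicate 1 and triangles replicate 2; in every gene the red and blue points do not interleave, which is how the genes were chosen.

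Part of the genotype difference under Tg was also present in DMSO. Of the 584 genes apart and lower in DD Tg, 141 (24.1%) were apart and lower in DD DMSO, beside 4.7% of all genes. These were 31.1% of the 453 lower there. Of the 987 higher in DD Tg, 249 (25.2%) were higher in DD DMSO, beside 11.1% of all genes, and these were 23.4% of the 1065 there. In opposite directions, 44 genes were apart and lower under Tg but higher in DMSO, and 20 were higher under Tg but lower in DMSO. At least 2-fold lower in DD within both replicate numbers of both treatments were 5 genes (0.0519%), and 2 (0.0208%), the pseudogene MCF2L2P1 and ENSG00000257869, were higher. These genes were picked after their values were seen. RBP7, a retinoid-binding protein gene, had 0.114 and 0.0 RPKM in DD Tg and 3.98 and 2.83 RPKM in WT Tg, and 0.151 and 0.0 RPKM in DD DMSO and 4.65 and 2.83 RPKM in WT DMSO. PNPLA4, a lipase gene, had 0.372 and 1.01 RPKM in DD Tg and 2.63 and 3.65 RPKM in WT Tg. BEX1, a gene of neural cells, had 2.51 and 0.0 RPKM in DD Tg and 8.07 and 4.45 RPKM in WT Tg. SLC7A3 and PMAIP1 were the other two. For RBP7 the difference was -2.05 ± 0.42 under Tg and -2.12 ± 0.42 in DMSO (log2, SE), and the change between them was 0.07 ± 0.59.

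The 2 replicate differences also varied with gene position and length. On chromosome 19 the median difference of 565 genes was 0.34 in replicate 1 and -1.19 in replicate 2, and on chromosome 22 that of 223 genes was 0.32 and -0.83. Chromosome 4, with 315 genes, had 0.00 and 0.50. On chromosome 3 both replicates were above 0 (0.25 and 0.24 over 541 genes). There 98 genes (18.1%) were apart and higher in DD Tg and 14 (2.59%) lower, beside 10.2% and 6.06% of all genes. In DMSO 91 of the 541 were apart and higher in DD and 14 lower, beside 11.1% and 4.7% of all genes. Of 3 equal length classes, the shortest had medians of 0.46 and -0.55 and the longest -0.13 and 0.52. Across the 9629 genes with a length, the difference had an r of -0.316 with log2 length in replicate 1 and 0.231 in replicate 2, a description over genes that share libraries. By RefSeq gene type, 68 of 329 long noncoding RNA genes (20.7%) were apart and higher in DD Tg, beside 10.1% of 7842 protein-coding genes. In DMSO 98 of the 329 were apart and higher in DD, beside 11.1% of all genes. DD Tg replicate 2 also had the highest share of mitochondrial ribosomal RNA, and whether RNA quality or composition sets this pattern was not tested.

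**Figure D5:**
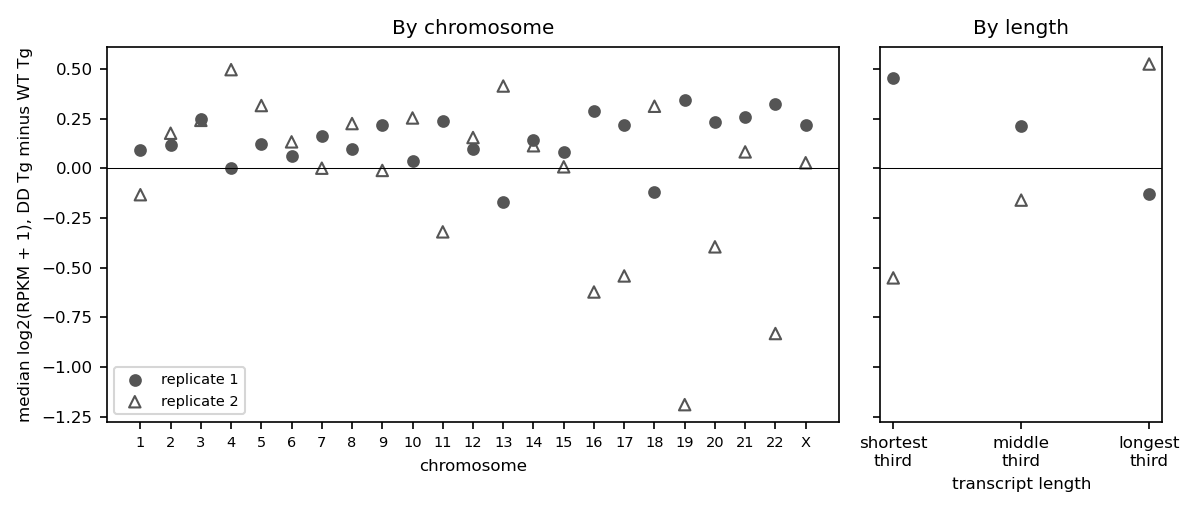
Median DD Tg minus WT Tg difference in log2(RPKM + 1) by chromosome (left) and by transcript length class (right), for replicate 1 (filled circles) and replicate 2 (open triangles). The 2 replicates part most on chromosome 19 (0.34 and -1.19), and their order turns round between the shortest and the longest transcripts.

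Genes were also grouped by the other assays of the series. Subunit-Seq recovers RNA bound to the cap-binding part of eIF3d, and 2491 genes were at least 2-fold above the Tg input in both of its Tg tables. Of these, 408 (16.4%) were apart and higher in DD Tg and 136 (5.46%) lower, beside 10.2% and 6.06% of all genes. Relative to all genes their median was -0.14 in replicate 1 and 0.39 in replicate 2, so the 2 numbers differed in sign. Of 163 genes at least 2-fold below the input, 2 (1.23%) were apart and higher in DD Tg and 10 (6.13%) lower, with relative medians of 0.20 and -1.04. Called m6A sites numbered 5050 in the DD Tg list and 1572 in the WT Tg list after duplicate lines were removed, each from 1 deposited list with no replicate. Of 1307 genes with a site in the DD Tg list alone, 129 (9.87%) were apart and higher and 62 (4.74%) lower in DD Tg. The 88 genes with a site in the WT Tg list alone gave 5 and 7, the 439 in both lists gave 36 and 22, and the 7803 in neither gave 817 (10.5%) and 493 (6.32%). Sites can be called only in expressed genes, so these classes also differ in level.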

How the data were processed

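The authors deposited RPKM tables of polyadenylated RNA-Seq and of Subunit-Seq (separate tables for its 2 replicates), and per the labels the cells were HEK293T. Cutadapt, STAR, DESeq2, BWA and GRCh38 appear in the submitters' processing notes, without roles, and versions are not given in the sources used here. Called m6A sites were deposited as one list per genotype and treatment, and only their positions were used here, with duplicate lines removed. Columns of no mapped sample numbered 0.

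Genes whose 8 RNA libraries averaged 1 RPKM or more were kept, and gene symbols matched 99.2% of IDs. Differences were taken on log2(RPKM + 1), a scale that understates changes of low genes, and fitted with limma 3.58.1 (R 4.3.3), trend and 4 groups in 1 fit without a block, with Benjamini-Hochberg adjustment. Whole reads were recovered from the RPKM steps (100.0% of values within 0.02 of a whole number) and gave depths of 4508483 to 10163214 reads over the 8 libraries. At these depths 3 reads on a gene of 1 kilobase correspond to 0.295 to 0.665 RPKM. Intervals and such limits cover counting error only. The fit was tested on simulated data with less noise than the named genes had. That test does not show how the fit behaves at their spread.

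The named genes were 10 fixed genes, the 12 highest and 12 lowest with a mean of at least 5 RPKM ranked by the smaller of their 2 within-replicate differences, and up to 4 members of each list by that ranking, of which 1 is not reported here. These members and lists were chosen with earlier results of these data known. Alternatives were other pseudocounts, filters and scalings, voom on recovered reads, a replicate block, the Tg libraries alone and leaving out each library. Tables were read with Python 3.11.15, pandas 2.3.3 and numpy 2.4.6.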

Additional observations from a re-analysis of the deposited data

Results flagged for a closer look

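For 7 named genes the genotype difference lay on one side of 0 in both replicate numbers under Tg and on the other side in both in DMSO. The change is the Tg difference minus the DMSO difference on the log2(RPKM + 1) scale, and by limma's test of it the adjusted p was 1 for each of the 7, so the change did not pass. The 97 genes named in the text were looked at.

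PDIA4 had a change of -1.51 ± 1.02 (SE), with 45.2 and 38.0 RPKM in DD DMSO and 24.3 and 26.9 RPKM in WT DMSO. P4HB had -1.95 ± 1.10, with 18.3 and 29.0 RPKM in DD DMSO and 17.9 and 19.99 RPKM in WT DMSO. DNAJB9 had -1.22 ± 0.94 and KDELR3, the retrieval receptor, had -1.07 ± 0.88. These 4 genes of ER protein handling were lower in DD under Tg and higher in DD in DMSO, but in DMSO only PDIA4 was apart. The DMSO differences were 0.03 and 0.51 for P4HB, 0.70 and 0.08 for DNAJB9 and 0.27 and 0.42 for KDELR3. For P4HB and DNAJB9 the sign in DMSO therefore rests on a value near 0 in 1 replicate. ALKBH5 had a change of -0.49 ± 0.72 and CDC6 had -0.49 ± 0.75, both in the same direction as those 4. MCM3 went the other way, at 0.89 ± 0.92, with 21.03 and 25.3 RPKM in DD DMSO and 33.4 and 26.01 RPKM in WT DMSO. The DMSO differences were also near 0 in 1 replicate for CDC6 (0.01 and 0.31) and MCM3 (-0.64 and -0.04).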

How the results depend on the processing

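By limma 0 genes were called in the comparison of DD Tg and WT Tg with another pseudocount, filter, scaling or voom, with a replicate block and without each library in turn. The exception was the fit of the 4 Tg libraries alone, which called 1 gene, RNA5-8SN2 (5.8S ribosomal RNA), with 0.0 and 56.5 RPKM in DD Tg and 0.0 and 0.0 RPKM in WT Tg. Its difference of 2.92 ranged over 0.0 to 5.85 without 1 library, so it rests on the second DD Tg library.

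The labels do not say that replicate numbers pair the libraries. Deviations of same-numbered libraries correlated at 0.743 to 0.864 across genes among WT DMSO, WT Tg and DD DMSO, and at 0.134 to 0.299 with DD Tg. The replicate block gave 0 calls and 254 genes at an unadjusted p under 0.05, against 82 without it. With the block and without the second DD Tg library, calls stayed at 0 and the direction turned for EIF3D (0.36), ATF4 (0.56), DDIT3 (0.006), METTL14 (-0.30), EIF3J (-0.025) and PDIA3 (-0.13). Without 1 library, EIF3D ran over -1.10 to 0.016, ATF4 over -0.81 to 0.43 and METTL14 over -0.04 to 0.72. In all, 7 of the 97 genes named turned in some setting, and the cause was not tested.

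Genes apart numbered 3337 higher and 1452 lower in DD Tg with no filter, and 331 and 205 at a mean of 5 RPKM, where more or fewer genes were tested. With totals that leave out mitochondrial genes 954 were higher and 890 lower, and with median-ratio scaling 857 and 856. Without 1 Tg library, 2545 to 3892 were higher and 1176 to 3495 lower, since 3 libraries separate more easily. Of the 76 genes raised by Tg in the inputs, 12 were apart and lower at a mean of 5 RPKM, and without 1 library 29 to 45 were lower and 6 to 13 higher, with a relative median of -0.73 to -0.34. Of the 8 raised by a log2 difference of 2 in both inputs, a limit chosen after seeing the data like the other changes to this class, 2 were lower and 0 higher, with a relative median of -1.08. Over 29 lists, 26 of 290 settings moved the median by more than the SD between its 2 replicate values, in 9 lists. Depth limits genes near 1 RPKM, and it limits short genes at higher RPKM as well.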
